A study of Mus musculus with 12 samples.

Results

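The spliceosome cuts introns out of nuclear transcripts, and its core is a small set of proteins that every cell uses. These proteins were followed here through the genes whose mouse symbols begin with Snrp, Snrnp, Prpf and a digit, Sf3a or Sf3b and a digit, Lsm and a digit, or U2af, with pseudogenes left out. The rule took 57 of the 24100 genes in the deposited count table, and it used names alone. Of the 57, 56 had enough counts to be tested and 1, Snrpn, was listed at 0 in all 12 libraries.

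RNA was sequenced from mouse embryonic fibroblasts (MEFs), SV40-immortalized cells of 2 lines isolated from different mothers. WT cells carried Rtf2+/+, and RTF2-deficient cells carried Rtf2-/lox, in which Cre removes the remaining functional copy. Both genotypes received Cre by retrovirus 72 hrs before collection, so Cre itself is shared by all 4 groups. WT and RTF2-deficient cells were littermates within a line, and each of the 4 groups had 3 libraries that the study calls technical replicates. P-values therefore measure the spread between libraries of the same cells. Within a line, genotype cannot be told apart from embryo. RTF2 is a replication fork protein, and its relatives in fission yeast and plants have been tied to intron retention. For MEFs lacking RTF2, the study reports no significant shift in intron retention across the genome, measured in separate libraries. It describes their transcription as largely unchanged.

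The spliceosome is built from RNA-protein particles called snRNPs. U1 and U2 recognize the ends of an intron, helped by the U2AF dimer, and the tri-snRNP of U4, U6 and U5 then joins and is remodelled into the active enzyme. Each of U1, U2, U4 and U5 RNAs wears a ring of Sm proteins, while U6 RNA wears a ring of Lsm2 to Lsm8. The 57 genes were sorted by role into the Sm ring (8 genes), U1 snRNP (6), U2 snRNP and U2AF (14), U5 and tri-snRNP (11), the minor spliceosome (3), the Prp19 complex and step 2 factors (2), the Lsm2 to Lsm8 ring (7) and Lsm proteins that act outside the spliceosome (6).

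The stretches of DNA just upstream of 3 of the genes, those whose difference between genotypes was called in every fit that left out 1 library, are printed to show what kind of promoter these genes have. Sequences are from RefSeq on GRCm38.p6, read 5′ to 3′ on the strand of the gene, and stop either 250 bases before the start or where the neighbouring gene begins. Capitals mark matches, on either strand, to CCAAT (the NF-Y motif), GGGCGG (the GC box) and CCGGAAG (an ETS family motif). Prpf8 lies on chr11:75486527-75486776 (plus strand), Snrnp200 on chr2:127208281-127208385 (plus strand) and Lsm7 on chr10:80855210-80855241 (minus strand).
Prpf8: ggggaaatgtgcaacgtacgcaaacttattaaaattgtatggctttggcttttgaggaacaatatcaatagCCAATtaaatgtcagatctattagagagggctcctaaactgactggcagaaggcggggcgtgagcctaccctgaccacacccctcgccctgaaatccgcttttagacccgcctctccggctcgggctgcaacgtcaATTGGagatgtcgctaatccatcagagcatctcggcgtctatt
Snrnp200: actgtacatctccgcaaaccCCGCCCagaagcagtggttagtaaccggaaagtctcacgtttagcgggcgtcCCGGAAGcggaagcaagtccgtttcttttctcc
Lsm7: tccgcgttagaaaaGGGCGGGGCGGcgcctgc
The upstream stretch of Prpf8 held CCAAT at 179 and 43 bases before the start, counted to the first base of the match. That of Snrnp200 held a GC box at 85 bases and CCGGAAG at 33 bases, and the short stretch between Lsm7 and Sppl2b held 2 overlapping GC boxes at 18 and 13 bases. The 250 bases before the start were searched for 46 of the 57 genes, in 57 windows because some genes have several starts. CCGGAAG was in 28.1% of these 57 windows and in 6.91% of all 32851 windows. The NRF1 motif, GCGCA and GCGC with any 1 base between them, was in 22.8% of them against 3.74% of all windows. The GC box was in 52.6% against 32.7%, CCAAT in 38.6% against 33.8%, CACGTG, the E-box, in 8.77% against 6.02%, and TATAAA in 7.02% against 12.4%. These letters are a description of the windows, and windows of 1 gene overlap. The 32851 windows were not limited to genes expressed here, so the shares do not set these genes apart from other expressed genes.

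Libraries held between 39360167 and 44695002 counts, and a gene with 0 counts in the shallowest could have reached 3 counts, or 0.0762 CPM, a limit that covers counting error only. Rtf2 checked the labels: it had 45.6 ± 1.35 CPM (SD, n = 3) in WT line 1, 5.79 ± 0.443 in RTF2-deficient line 1, 53.9 ± 3.52 in WT line 2 and 6.49 ± 0.168 in RTF2-deficient line 2. The fibroblast markers Col1a1 (4849 to 9494 CPM), Vim and Thy1 were high throughout, whereas Dcn and Lum stayed at or below 2.10 CPM. Defining markers of other cell types were at or near 0 (Ptprc of blood at most 0.122 CPM, Epcam of epithelium at most 0.308, Pecam1 of endothelium at most 0.113, Ckm of muscle at 0). Others were detected: Krt18 (1.22 to 12.4 CPM), Krt19 (19.3 to 83.5), Cd68 (1.44 to 8.95), Kdr (6.71 to 15.2), Tubb3 (8.25 to 53.3) and Myod1 (0 to 2.91). Summed over each list, epithelial markers ran from 22.1 to 49.4 CPM in line 1 and from 34.4 to 90.8 CPM in line 2, with both genotypes overlapping. Endothelial markers had 6.78 to 9.22 and 7.01 to 10.1 CPM in WT lines 1 and 2 against 7.76 to 14.0 and 8.86 to 15.4 CPM in the RTF2-deficient ones. Blood markers had 5.34 to 9.06 CPM in WT line 2 and at most 3.87 CPM in the other groups. Neural markers had 38.1 to 53.5 CPM in line 1, overlapping between genotypes, and 8.90 to 19.4 CPM in WT line 2 against 21.5 to 31.8 CPM in RTF2-deficient line 2. Muscle markers summed to at most 3.51 CPM. By edgeR, Krt18 (0.74, adjusted p = 0.038) and Kdr (0.58, adjusted p = 0.049) passed higher in RTF2-deficient cells with both lines in 1 model and in neither line alone, while 3 of the 5 epithelial genes had log2 fold changes below 0 (median of the 5 -0.16). Cd68 was lower in RTF2-deficient cells of line 2 (-1.07, adjusted p = 0.0081 by edgeR). The part of these markers in the results was not tested. In WT line 2 alone the Y-linked gene Ddx3y was expressed (91.8 to 107 CPM) and Xist was at most 0.132 CPM, so genotype in line 2 cannot be told apart from the sex of the embryo. None of the 57 genes lies on chromosome X or Y. A set of 10 interferon-stimulated genes also set libraries apart, with a median log2(CPM + 1) from 1.44 to 9.42, and these scores are given beside the results they move with.

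Differences of the core spliceosome genes between genotypes were small. With both lines in 1 model, 5 of the 56 tested genes (8.93%) passed an adjusted p of 0.05 by edgeR's quasi-likelihood test, against 13.2% of all 14263 genes tested. The order of these shares depended on the setting: with no filter on low counts it was 8.93% against 8.18%, and with no term for line 8.93% against 8.6%. Leaving out single libraries gave 3 to 9 genes. The 3 (5.36%) came in fits where 8% to 10.1% of all genes were called. The 9 (16.1%, against 13.7% of all genes) came without replicate 3 of RTF2-deficient line 2. The 2 that fell were Lsm7 and Prpf40b, where 8.18% of all genes were called lower. The 3 that rose were Prpf8, Snrnp200 and Sf3a2, where 4.98% of all genes were called higher. None passed a log2 fold change of 1 as well, a threshold that 1.72% of all genes met. The median log2 fold change, RTF2-deficient over WT, was 0.06 over the 56 genes and 0.00 over all genes. Regardless of sign, the median size of the change was 0.08 against 0.15. The 56 genes and all genes were not matched for expression level, and all genes include lower ones. A log2 fold change below 0 was found for 12 of the 56 genes (21.4%) and for 49.6% of all genes. The count was 9 with RLE normalization or DESeq2 and 9 to 19 when single libraries were left out, with the 19 (33.9%, against 49.5% of all genes) found without replicate 1 of RTF2-deficient line 2. With a further term for the interferon score, a fit chosen after seeing the data, it was found for 32 of the 56 (57.1%) and for 48.3% of all genes. Without adjustment, 12 of the 56 genes and 28.5% of all genes had p under 0.05.

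**Figure D1:**
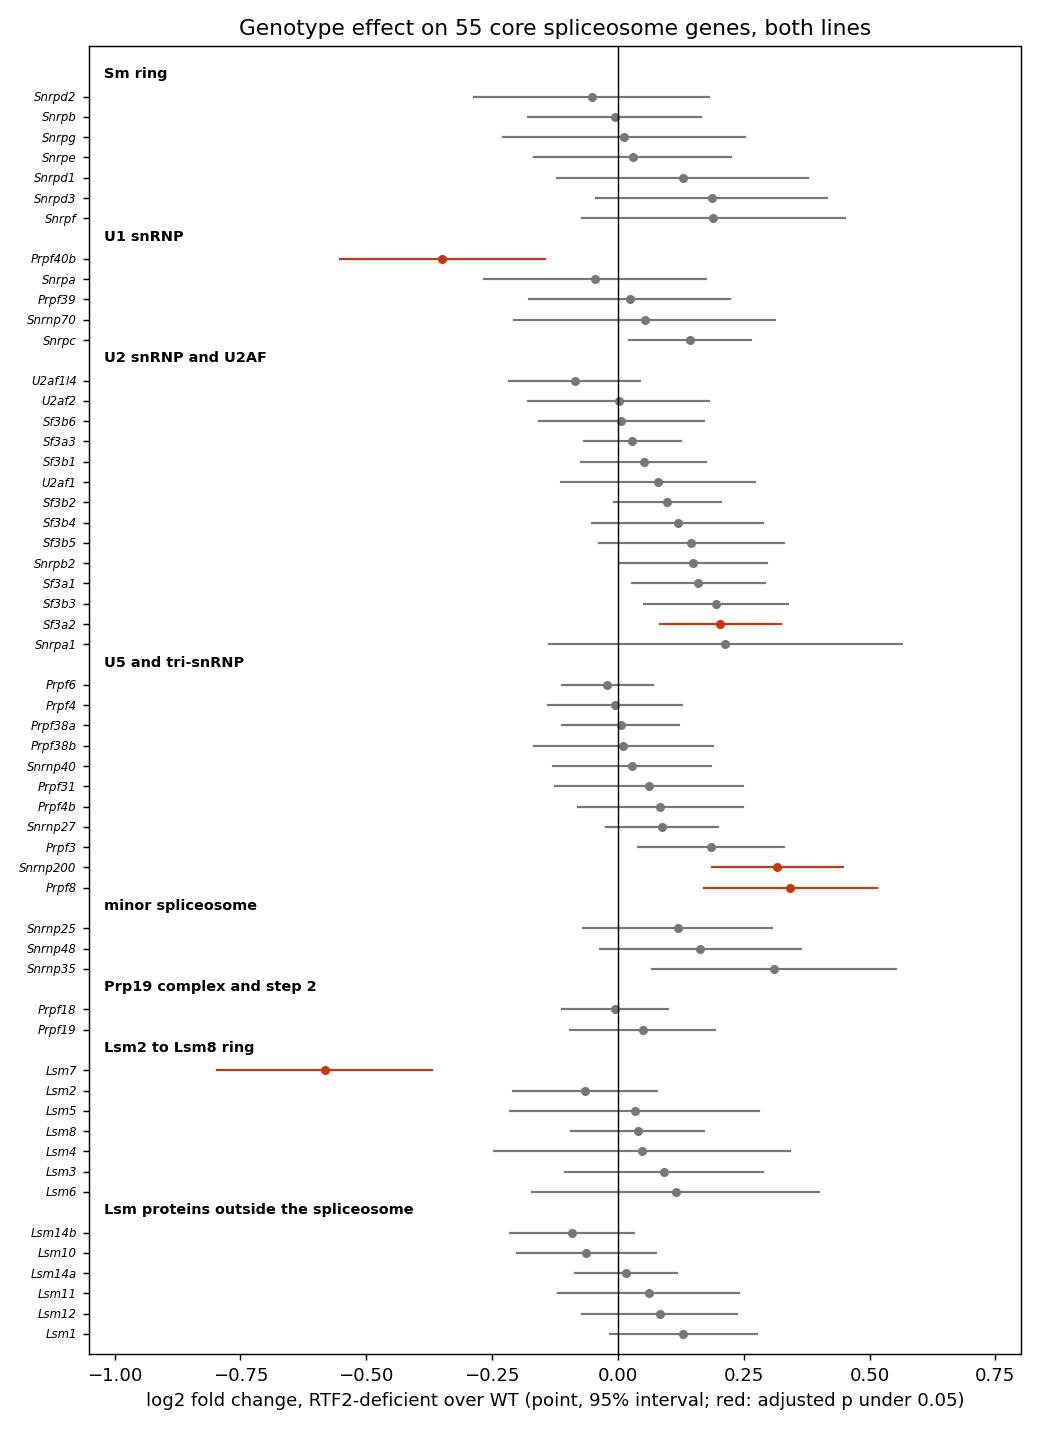
Each point is the log2 fold change (x axis, RTF2-deficient over WT, both lines) of 1 of 55 tested genes, grouped by role on the y axis, with its 95% interval as a line; red marks an adjusted p under 0.05. The 5 red genes run from -0.58 for Lsm7 to 0.34 for Prpf8, and the other points lie between -0.09 and 0.31, with the widest interval that of Snrpa1 (-0.14 to 0.56).

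The intervals show how precisely these cultures were measured, and hold no variation between embryos. The standard errors of the 56 log2 fold changes lay between 0.0413 and 0.161 with a median of 0.0768. For 55 of the 56 genes the 95% interval stayed within a 1.5-fold change in either direction, as it did for 65.7% of all genes. The exception was Lsm7, whose interval ran from -0.80 to -0.37 on the log2 scale. The median within-group SD of log2 CPM was 0.131 over the 56 genes and 0.180 over all genes. Mean levels of the 56 genes ran from 8.51 to 380 CPM, while all genes include lower ones.

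The U5 snRNP and tri-snRNP group held the 2 clearest increases. Prpf8, the protein that forms the catalytic cavity of the spliceosome, had 307, 345 and 290 CPM in the 3 libraries of WT line 1 and 379, 422 and 389 CPM in RTF2-deficient line 1. It had 385, 321 and 363 CPM in WT line 2 and 482, 500 and 379 CPM in RTF2-deficient line 2. Genotypes did not overlap in line 1, while in line 2 the third RTF2-deficient library fell below the first WT library. Prpf8 rose by 26.8% (log2 fold change 0.34, SE 0.079, adjusted p = 0.014 by edgeR's quasi-likelihood test). It passed edgeR's test in neither line alone (adjusted p = 0.19 in line 1 and 0.076 in line 2), nor with an interferon score, described further on, as a term (adjusted p = 0.052).

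Snrnp200 encodes BRR2, the helicase that unwinds U4 from U6 and is held by PRPF8. Its level was 199, 205 and 179 CPM in WT line 1 against 240, 256 and 231 CPM in RTF2-deficient line 1. The line 2 values were 223, 192 and 213 CPM in WT and 268, 278 and 237 CPM in RTF2-deficient cells. All 6 RTF2-deficient libraries lay above all 6 WT libraries, which held for no other of the 56 genes and for 1.56% of all genes. Snrnp200 rose by 24.6% (log2 fold change 0.32, SE 0.059, adjusted p = 0.0045 by edgeR's quasi-likelihood test).

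The other 9 genes of the U5 and tri-snRNP group did not pass the test. Prpf3, a U4/U6 protein, came nearest with 0.19 (adjusted p = 0.089 by edgeR). With a replicate block in line 1, where same-numbered libraries deviated together, it passed (adjusted p = 0.014 by edgeR). Prpf31, which links U4/U6 to U5, had a log2 fold change of 0.06 with a 95% interval from -0.13 to 0.25. Prpf6, the bridging protein of the tri-snRNP, had -0.02, Prpf4 -0.01 and the WD-repeat U5 protein gene Snrnp40 0.03. The kinase gene Prpf4b had 0.08 and Snrnp27 0.09. Prpf38b had 0.18 in line 1 and -0.16 in line 2, which gave 0.01 over both lines. Of all 11 genes of the group, 2 (18.2%) were called, against 13.2% of all genes. The median over the 11 was 0.06, and 2 of the 11 lay below 0.

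Genes of the U2 snRNP and U2AF, which mark the branch point and the 3′ splice site, held 1 call among 14 genes (7.14%, against 13.2% of all genes). Their median log2 fold change was 0.11, and U2af1l4 alone lay below 0 (-0.09). Sf3a2, a subunit of the SF3a complex, had 54.0, 61.4 and 60.8 CPM in WT line 1 and 71.4, 70.8 and 71.0 CPM in RTF2-deficient line 1. In line 2 it had 61.3, 61.7 and 64.4 CPM in WT cells and 69.7, 73.8 and 62.0 CPM in RTF2-deficient cells. The groups were apart in line 1 and overlapped in line 2. Sf3a2 rose by 15.2% (log2 fold change 0.20, SE 0.055, adjusted p = 0.031 by edgeR's quasi-likelihood test). This call rested on single libraries: the adjusted p lay between 0.051 and 0.077 without replicate 2 or 3 of RTF2-deficient line 1, replicate 2 of WT line 2, or replicate 1 or 2 of RTF2-deficient line 2. It was 0.038 with a replicate block in line 1 and 0.077 with a block in both lines, by edgeR.

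Sf3b3 (0.20, adjusted p = 0.071) and Sf3a1 (0.16, adjusted p = 0.11), both structural subunits of the same U2 particle, did not pass edgeR's test. Sf3b1, the branch-point clamp often mutated in blood cancers, had 322 to 362 CPM in WT line 1 and 332 to 376 CPM in RTF2-deficient line 1. Its line 2 values were 336 to 378 CPM in WT and 345 to 400 CPM in RTF2-deficient cells. The groups overlapped in both lines, and the log2 fold change of 0.05 had a 95% interval from -0.07 to 0.17. U2af2, the large U2AF subunit that binds the polypyrimidine tract, had a log2 fold change of 0.00 (95% interval -0.18 to 0.18), and its small partner U2af1 had 0.08 (-0.11 to 0.27). Snrpa1, which binds U2 RNA together with Snrpb2, had the widest interval of the group, from -0.14 to 0.56 around 0.21.

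U1 snRNP, which pairs with the 5′ splice site, held 1 gene that fell, its only call among 6 genes (16.7%, against 13.2% of all genes). Prpf40b, a U1-associated scaffold, had 12.2, 12 and 11.6 CPM in WT line 1 and 11.7, 9.71 and 10.8 CPM in RTF2-deficient line 1. Its counts in line 2 gave 14.1, 15.3 and 12.9 CPM in WT and 9.82, 8.52 and 10.7 CPM in RTF2-deficient cells. The genotypes were apart in line 2 and touched in line 1. Prpf40b fell by 21.5% (log2 fold change -0.35, SE 0.093, adjusted p = 0.030 by edgeR's quasi-likelihood test). Without replicate 2 of RTF2-deficient line 1, any 1 of the 3 libraries of WT line 2, or replicate 1 or 2 of RTF2-deficient line 2, the adjusted p was 0.058 to 0.073. With a replicate block it was 0.038 (block in line 1) or 0.084 (block in both lines), by edgeR. Prpf40b also overlaps Fam186b, and whether the counting used strand is not given in the sources used here.

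Snrnp70, the U1-70K protein that grips the first stem of U1 RNA, had a log2 fold change of 0.05 with a 95% interval from -0.21 to 0.31. Snrpc, which steadies the pairing with the splice site, had 0.14 (adjusted p = 0.11 by edgeR), and Snrpa, which binds the second stem of U1 RNA, had -0.04. Over the 6 genes the median was 0.04.

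Sm ring genes showed no call, where 13.2% of all genes were called. Of the 8, 7 were tested, with log2 fold changes from -0.05 for Snrpd2 to 0.19 for Snrpf and a median of 0.03. Snrpb, which codes for the SmB protein, had 164, 187 and 198 CPM in WT line 1 and 158, 180 and 179 CPM in RTF2-deficient line 1. It had 148, 183 and 168 CPM in WT line 2 against 191, 181 and 154 CPM in RTF2-deficient line 2. Its libraries overlapped in both lines, and the 95% interval of its log2 fold change ran from -0.18 to 0.16. Snrpd3 had 0.19 (adjusted p = 0.27) and Snrpd1 0.13 (adjusted p = 0.49 by edgeR).

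The eighth Sm gene, Snrpn, encodes a close relative of SmB that is best known from the brain and is imprinted. It was listed at 0 in every library. Snurf, which shares its transcript, had 473 to 796 counts per library, and the overlapping noncoding gene Snhg14 had 97 to 157. Counts of a shared transcript can be given to either gene, so the 0 of Snrpn does not measure its expression, and no fold change is given for it.

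The Lsm2 to Lsm8 ring, which caps the end of U6 RNA, held the largest difference among the 56 genes. Lsm7 had 22.9, 25.8 and 28.0 CPM in WT line 1 and 18.9, 16.1 and 20.2 CPM in RTF2-deficient line 1. WT line 2 had 23.7, 33.8 and 29.6 CPM, and RTF2-deficient line 2 had 18.0, 16.7 and 19.3 CPM. No WT library reached as low as any of the 6 RTF2-deficient libraries, a separation seen in the same direction for 4.41% of all genes. Lsm7 fell by 33.2% (log2 fold change -0.58, SE 0.098, adjusted p = 0.0023 by edgeR's quasi-likelihood test).

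The other 6 ring genes had log2 fold changes between -0.07 for Lsm2 and 0.11 for Lsm6, and none passed the test. Lsm8, the subunit that sets the nuclear ring apart from the cytoplasmic one, had 0.04 with a 95% interval from -0.09 to 0.17. The ring holds 1 copy of each protein, and Lsm7 was its only gene past the test under edgeR and DESeq2. By edgeR that is 14.3% of the 7 ring genes, against 13.2% of all genes. The start of Lsm7 lies 32 bases from that of Sppl2b, an intramembrane protease gene read from the opposite strand, which had a log2 fold change of 0.02 (adjusted p = 0.89 by edgeR).

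**Figure D2:**
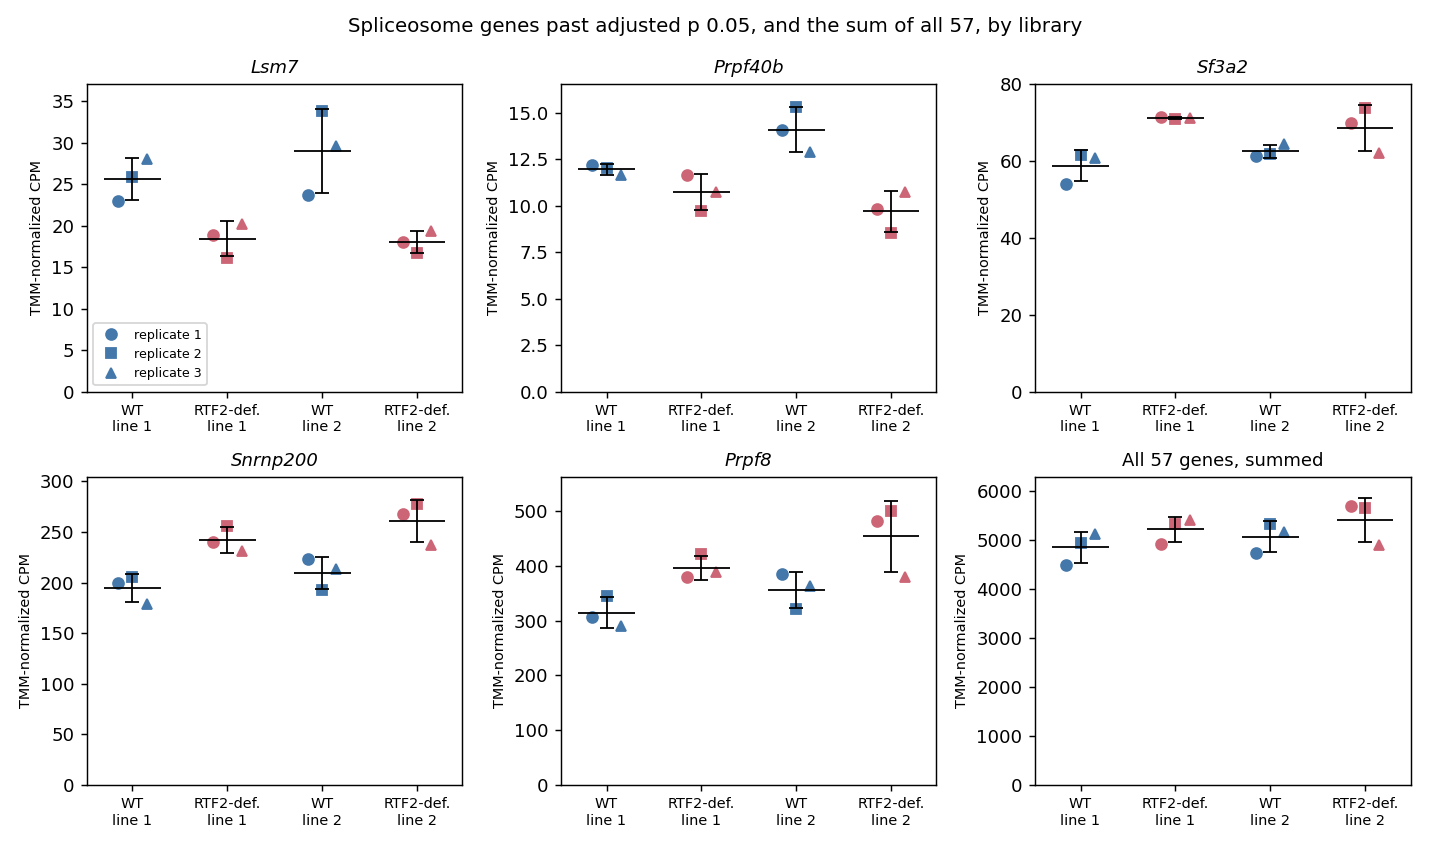
TMM-normalized CPM (y axis, from 0) of the 5 genes past the test and of the sum of all 57 genes in each of the 12 libraries, by group on the x axis; horizontal bars are means, vertical bars SD (n = 3), and marker shapes are replicates. Genotypes separate fully for Lsm7, lower in RTF2-deficient cells, and for Snrnp200, higher in them, whereas Prpf8, Sf3a2 and Prpf40b overlap in 1 of the lines.

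Lsm proteins outside the spliceosome did not pass the test. Lsm1, which heads the cytoplasmic ring of mRNA decay, had a log2 fold change of 0.13, Lsm14a and Lsm14b, of mRNA storage granules, had 0.02 and -0.09, and Lsm10 and Lsm11, of the U7 particle that trims histone transcripts, had -0.06 and 0.06. Lsm12 had 0.08. The minor spliceosome, which removes a rare class of introns, had all 3 genes above 0, with Snrnp35 at 0.31 (SE 0.111, adjusted p = 0.090), Snrnp48 at 0.16 and Snrnp25 at 0.12, none past edgeR's test. Snrnp35 had 7.07 to 9.19 CPM in WT line 1, 8.72 to 11.3 CPM in RTF2-deficient line 1, 6.30 to 8.11 CPM in WT line 2 and 7.21 to 10.2 CPM in RTF2-deficient line 2, so the genotypes overlapped in both lines. Snrnp35 overlaps Rilpl1. Prpf19, the ubiquitin ligase that names the Prp19 complex, had 0.05 (95% interval -0.09 to 0.19), and the step 2 factor gene Prpf18 had -0.01.

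Per length of transcript, the Sm ring and the U2 particle were the most abundant of these groups. Levels are mean CPM over the 12 libraries per kilobase of the principal transcript in GENCODE M21. Snrpb was highest at 150 CPM per kb, followed by Snrpe at 136, Snrpd1 at 124 and U2af2 at 116. The median was 61.2 CPM per kb in the Sm ring (Snrpn at 0 included, which lowers it) and 53.4 in U2 snRNP and U2AF. It was 49.2 in the Prp19 complex and step 2 (2 genes), 48.6 in the Lsm2 to Lsm8 ring, 37.6 in U1 snRNP and 29.4 in the U5 and tri-snRNP group. For Sf3b5 the GENCODE transcript (3841 bases) is longer than the RefSeq gene (734 bases), so its level was 11.03 CPM per kb by the first length and 57.7 by the second, which would make the U2 median 55.7. Minor spliceosome genes were lower, from 7.41 CPM per kb for Snrnp35 to 15.2 for Snrnp25. Lsm11 (3.30 CPM per kb) and Prpf40b (3.51) were lowest apart from Snrpn. Of the genes that rose, Prpf8 stood at 51.8 CPM per kb, Snrnp200 at 33.6 and Sf3a2 at 29.5, and Lsm7, which fell, at 48.6.

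**Figure D3:**
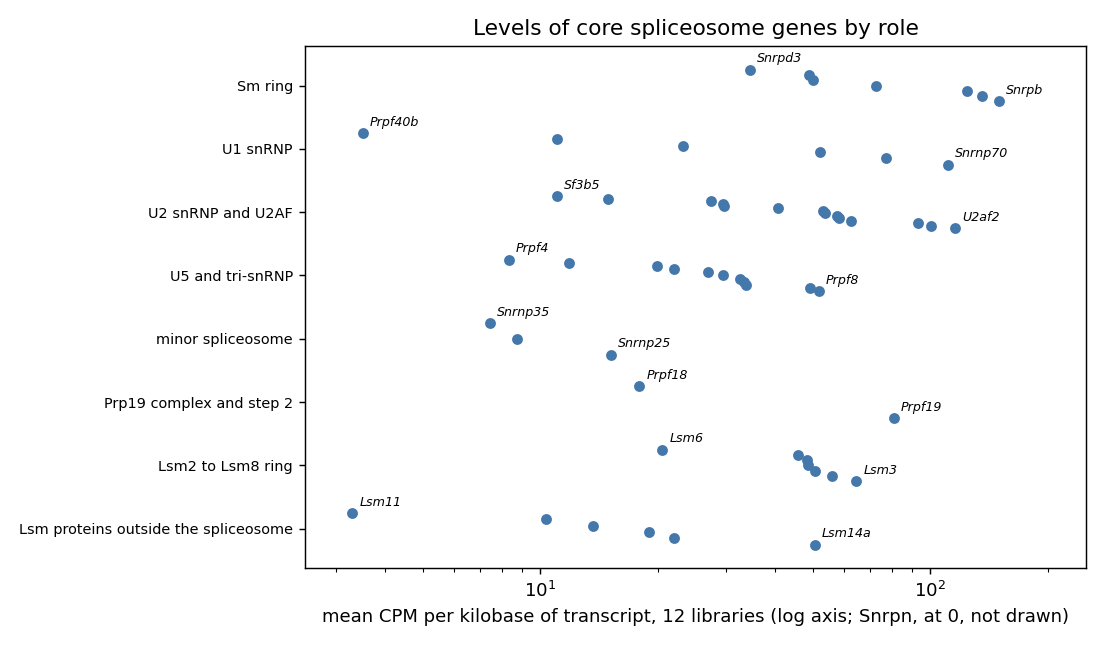
Mean CPM per kilobase of transcript over the 12 libraries (x axis, log scale) of 56 genes, 1 point each, by role on the y axis with the lowest and highest gene of each role named; Snrpn, listed at 0, is not drawn, and the low place of Sf3b5 rests on its long GENCODE transcript. Sm ring genes reach 150 CPM per kb for Snrpb, and the 3 minor spliceosome genes lie between 7.41 and 15.2.

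Within single lines fewer genes passed. In line 1 none of the 56 genes passed edgeR's test, where 3.2% of all genes did, although 4 had an unadjusted p under 0.05 (Lsm7, Sf3a2, Prpf8 and Snrnp200), against 13.9% of all genes, and DESeq2 called 3 (Lsm7, Sf3a2 and Snrnp200), against 5.97% of all genes. In line 2 Lsm7 and Prpf40b fell and Snrnp200 rose, 3 of 56 genes (5.36%) against 12.5% of all genes (7.03% lower and 5.42% higher). The line 2 log2 fold changes were -0.69 for Lsm7 (adjusted p = 0.0086), -0.54 for Prpf40b (adjusted p = 0.0093) and 0.32 for Snrnp200 (adjusted p = 0.038, all by edgeR). Without replicate 2 of RTF2-deficient line 2 none of the 3 passed, with adjusted p of 0.0503 for Lsm7, 0.0503 for Prpf40b and 0.142 for Snrnp200. Snrnp200 alone was also lost without replicate 2 or 3 of WT line 2 (adjusted p = 0.104 and 0.0774) or replicate 1 of RTF2-deficient line 2 (0.113), and with a replicate block in both lines (0.062 by edgeR). Without replicate 3 of RTF2-deficient line 2 the count rose to 5 in line 2, with Prpf8 and Sf3a1 added (8.93%, against 16.4% of all genes), and to 1 in line 1, Sf3a2 (1.79%, against 3.19%).

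Genes were also counted by whether the 3 libraries of each genotype overlapped. In line 1, 1 gene was lower (Lsm7, against 11.3% of all genes) and 8 were higher (Prpf8, Snrnp200, Sf3a1, Sf3a2, Sf3b2, Sf3b5, Snrnp27 and Snrpc, against 9.79%) in every RTF2-deficient library. In line 2, 2 genes were lower (Lsm7 and Prpf40b, against 15.5%) and 3 were higher (Snrnp200, Prpf3 and Lsm11, against 14%). Lsm7 and Snrnp200 were in both lists of the same direction.

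Fold changes of 42 of the 56 genes (75%) had the same sign in both lines, against 69.8% of all genes, and 33 were above 0 in both, against 35.4% of all genes. Snrnp200 had 0.32 in each line, Prpf8 0.34 and 0.35, and Snrnp35 0.30 and 0.32, in line 1 and line 2. The difference between lines was tested directly. No gene of the 56 had an effect that differed between lines by edgeR's interaction test, where 1.29% of all genes did, with 3 at an unadjusted p under 0.05 (Prpf40b, Prpf38b and Lsm11, against 8.49% of all genes) and none called by DESeq2. Prpf40b had the largest gap, -0.38 on the log2 scale (line 2 effect minus line 1 effect, SE 0.155, adjusted p = 0.48). The standard error of this difference had a median of 0.151 over the 56 genes, so small gaps between lines could not be resolved.

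**Figure D4:**
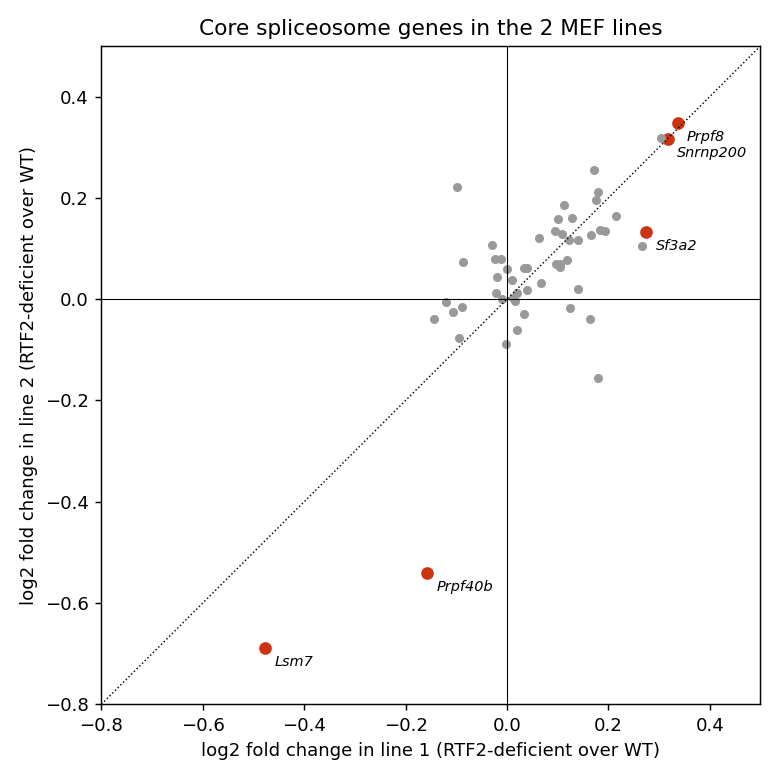
Log2 fold change (RTF2-deficient over WT) in line 1 (x axis) against line 2 (y axis) of 55 tested genes, 1 point each, with the dotted line marking equal effects and red marking genes past the test in both lines together. Prpf8 and Snrnp200 sit on the line of equal effects, and Prpf40b lies at -0.16 in line 1 and -0.54 in line 2.

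The 2 WT lines differ in embryo and not in Rtf2 genotype. They also differ in sex-linked genes, as given above, and in the 10 interferon-stimulated genes, which had a median log2 fold change of 4.52 (line 2 over line 1) with 4 called by edgeR. Between WT line 2 and WT line 1 none of the 56 genes was called by edgeR, whereas 14% of all genes (1998 genes) were. Without adjustment, 8 of the 56 and 28.1% of all genes had p under 0.05. The fold changes between WT lines ran from -0.29 for Lsm11 (adjusted p = 0.080) to 0.34 for Snrnp48 (adjusted p = 0.13). Prpf8 and Snrnp200, the 2 genes with the largest increases in RTF2-deficient cells, had 0.18 (adjusted p = 0.35) and 0.11 (adjusted p = 0.47) between the WT lines. These comparisons share their WT libraries with the genotype comparisons.

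The core spliceosome genes varied together from library to library within a group. Their summed level was 4492, 4936 and 5124 CPM in WT line 1 and 4925, 5333 and 5405 CPM in RTF2-deficient line 1. It was 4728, 5331 and 5164 CPM in WT line 2 and 5706, 5652 and 4904 CPM in RTF2-deficient line 2, which is 0.454% to 0.566% of all counts. The groups overlapped in both lines. By replicate number, which paired the libraries in line 1 only, each RTF2-deficient library of line 1 lay above its WT partner, and with 3 pairs no test was made. In bulk RNA, fewer cells of a kind and less RNA per cell cannot be told apart. In replicate 1 of WT line 1, 45 of the 56 genes had their lowest value of the 3 libraries, against 39.1% of all genes, and in replicate 3 of RTF2-deficient line 2, 43 did, against 38.6%. The counts were 41 in replicate 1 of RTF2-deficient line 1 (all genes 36.6%) and 37 in replicate 1 of WT line 2 (38.7%). Snrpa1 had the largest within-group SD of the 56 genes, 0.335 on the log2 scale, and Prpf6 the smallest, 0.050.

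The same 4 libraries had the highest interferon score of their groups. The score was 4.29, 1.69 and 2.71 in WT line 1, 2.32, 1.44 and 1.75 in RTF2-deficient line 1, 9.42, 5.15 and 7.04 in WT line 2 and 2.55, 3.68 and 7.68 in RTF2-deficient line 2, in replicate order. All 10 interferon-stimulated genes had fold changes below 0 in both lines together (median -1.56), and none passed edgeR's test. With the score of each library as a further term in the model, a fit chosen after seeing the data, Lsm7 (-0.62, adjusted p = 0.0038) and Snrnp200 (0.31, adjusted p = 0.014) kept their calls. Prpf8 (0.29, adjusted p = 0.052), Sf3a2 (0.16, adjusted p = 0.097) and Prpf40b (-0.30, adjusted p = 0.081) did not. The part of the interferon response in the shared variation of the 57 genes was not tested. The median log2(CPM + 1) of 11 proliferation genes lay between 7.75 and 8.14 in all libraries. One of these genes, the replication helicase subunit Mcm7, fell (-0.29, adjusted p = 0.0020 by edgeR).

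**Figure D5:**
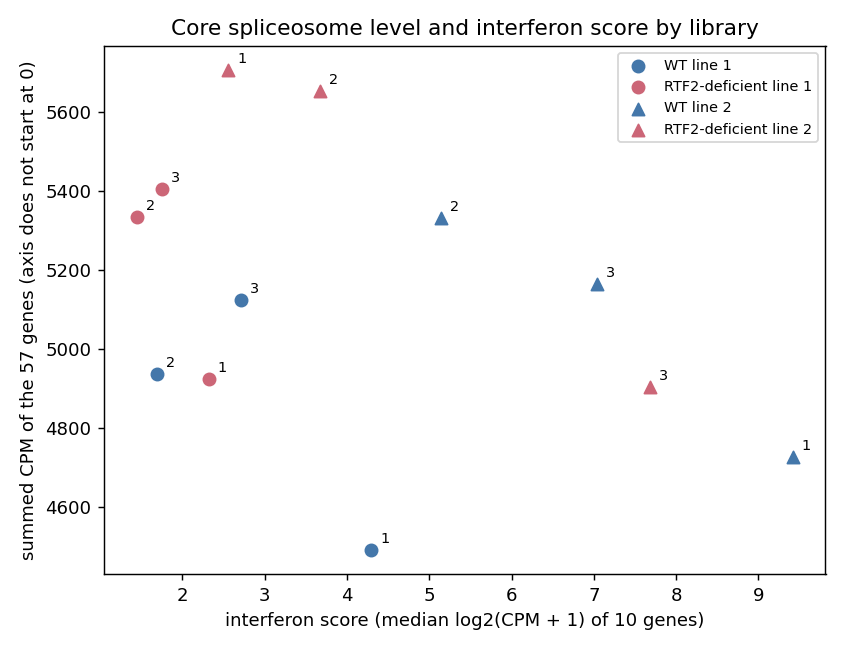
Summed CPM of the 57 genes (y axis, which does not start at 0) against the interferon score (x axis, median log2(CPM + 1) of 10 genes) in each of the 12 libraries, with colour for genotype, shape for line and a number for the replicate. In each group the library farthest to the right is also the lowest, from 4492 CPM in WT line 1 to 4925 CPM in RTF2-deficient line 1.

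The spliceosome has many more proteins than the naming rule covers, and 80 further genes of the spliceosome and of snRNP assembly and import were followed in 4 lists. All 80 were tested and 4 passed edgeR's test (5%, against 13.2% of all genes), 2 lower and 2 higher. Among 33 genes of the Prp19 complex, the B and C complexes and the helicases, Dhx16, the helicase that drives the first catalytic step, fell (-0.44, SE 0.053, adjusted p = 0.00022), and Ppie, a cyclophilin of the active spliceosome, rose (0.48, SE 0.074, adjusted p = 0.0013). Dhx16 was called in each line alone, at -0.41 in line 1 (adjusted p = 0.015) and -0.47 in line 2 (adjusted p = 0.0029). Ppie had 0.45 in line 1 (adjusted p = 0.051) and 0.51 in line 2 (adjusted p = 0.011). For both genes the 6 RTF2-deficient libraries did not overlap the 6 WT libraries.

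Of 21 other U1, U2, U5 and tri-snRNP proteins, Sart3, which recycles U4 and U6, rose by 0.17 on the log2 scale (adjusted p = 0.035). Among 18 genes of snRNP assembly and import, Gemin8, of the SMN complex that loads Sm rings, fell by 0.31 (adjusted p = 0.049 by edgeR). Neither call was firm, since leaving out single libraries took the adjusted p of Sart3 to between 0.0071 and 0.092 and that of Gemin8 to between 0.031 and 0.12. The 8 other minor spliceosome genes had no call. Eftud2, the GTPase that sits with PRPF8 and BRR2 in U5, had a log2 fold change of 0.05 (adjusted p = 0.64), and the tri-snRNP helicase gene Ddx23 had 0.19 (adjusted p = 0.0503 by edgeR). Ddx23 did pass with RLE normalization (adjusted p = 0.044 by edgeR), with a filter of 1 CPM in 6 libraries (0.039), with DESeq2 (0.013) and without replicate 3 of WT line 1 (0.048), replicate 1 of RTF2-deficient line 1 (0.049) or replicate 3 of RTF2-deficient line 2 (0.026).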

How the data were processed

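RNA-seq was analysed from 12 libraries, 3 for each of 4 groups, with groups and replicate numbers from the labels. The authors deposited raw counts per gene by Entrez number, 1 column per library. Their methods name Salmon with UCSC mm10 gene models and tximport for single-end reads, while the processing notes name HTSeq. The strand setting is not given in the sources used here, so values of the 10 genes that overlap another gene are uncertain. Symbols came from RefSeq's GRCm38.p6 (24045 of 24100 identifiers).

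Genes that passed filterByExpr (14263) were normalized by TMM and tested in R 4.3.3 with edgeR 4.0.16 (glmQLFit, glmQLFTest) with terms for line and genotype, or in a layout of the 4 groups for single lines and their difference. P-values were adjusted by Benjamini-Hochberg over all genes tested, and calls needed 0.05. DESeq2 1.42.0 and the other settings in the closing section were alternatives. The fit was run on simulated counts, drawn independently for each gene and library. These held no difference between lines and no variation shared by genes, so they do not measure false calls in the real libraries. Deviations of same-numbered WT and RTF2-deficient libraries correlated at 0.625, 0.43 and 0.484 in line 1 and at -0.587, 0.17 and -0.279 in line 2, so numbers were taken to pair libraries in line 1 only, a pairing that comes from the data and not from the labels. No column went unused, and no pair of libraries agreed within sampling noise.

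Every tested gene of the naming rule was counted by role. By rule, genes past the test in both lines or in the difference between lines were named, and always Prpf8, Snrnp200, Sf3b1, U2af1, U2af2, Snrnp70, Snrpb, Snrpn, Prpf19, Prpf31, Lsm2 and Lsm8. The others were named after their values were seen, and 1 tested gene is counted but not reported by name here. The genes and lists were chosen with earlier results of these data known.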

Additional observations from a re-analysis of the deposited data

How the results depend on the processing

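The count of core spliceosome genes past the threshold in both lines together, 5, was also 5 (8.93%) with RLE normalization (13.4% of all genes called), with no filter on low counts (8.18%), with a filter of 1 CPM in 6 libraries (15.3%) and with no term for line (8.6%). DESeq2 called 9 (2 lower and 7 higher, with Prpf3, Sf3b3 and Snrnp35 among those added), against 18.9% of all genes. A term for the interferon score, chosen after seeing the data, left 2, against 12.6% of all genes. With the 3 technical libraries of each group summed, 0 genes were called, as were 0 of all genes. That fit has 4 samples, and Rtf2 itself had an adjusted p of 0.10 in it. Leaving out 1 library gave 3 to 9 in both lines, 0 to 1 in line 1, 0 to 5 in line 2 and 0 throughout for the difference between lines. The 3 came without replicate 2 of RTF2-deficient line 1 (10.1% of all genes called) or replicate 1 (8.66%) or 2 (8%) of RTF2-deficient line 2. The 9 came without replicate 3 of RTF2-deficient line 2, against 13.7% of all genes. Shares of all genes in these fits were 1.33% to 3.33% in line 1, 5.62% to 16.4% in line 2 and 0.456% to 1.13% for the difference. Lsm7, Prpf8 and Snrnp200 were called in both lines together in all 12 of these fits, Sf3a2 in 7 and Prpf40b in 6. DESeq2 called 3 in line 1, where edgeR called 0, and 4 in line 2, against 5.97% and 18.1% of all genes.

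With a replicate block in line 1 only, where numbers paired the libraries, a fit chosen after seeing the data, 6 genes passed in both lines (the 5 and Prpf3, against 14.9% of all genes). In this fit 0 passed in line 1 (3.65% of all genes), 3 in line 2 (15.7%) and 0 for the difference (1.7%), and it changed no other call. With a replicate block within both lines, 4 genes passed in both lines (Lsm7, Prpf3, Prpf8 and Snrnp200, against 10% of all genes). That fit gave 0 in line 1 (1.7% of all genes), 2 in line 2 (Lsm7 and Prpf40b, against 11.3%) and 0 for the difference (0.918%). In line 2 no library correlated best with its own number.

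Of 51 genes followed through the alternatives, signs turned for 24, whose log2 fold changes lay between -0.05 and 0.21, and the cause was not tested. With the interferon score as a term, log2 fold changes were -0.0021 for Snrpf, -0.0055 for Prpf4b, -0.0143 for Lsm11, -0.0182 for Lsm12, -0.0271 for Sf3b1, -0.0272 for Sppl2b, -0.0336 for U2af1, -0.0347 for Prpf31, -0.0365 for Prpf19, -0.0420 for Eftud2, -0.0448 for Snrpd1, -0.0582 for Snrpa1, -0.0853 for Snrnp40, -0.0942 for Lsm6, -0.11 for U2af2 and -0.14 for Snrnp70, and 0.0118 for Prpf4 and 0.047 for Prpf18. Snrpb had 0.00098 with RLE normalization, 0.0035 with no filter and 0.00097 with DESeq2, where Prpf4 had 0.0019, 0.0049 and 0.0019 and Prpf18 had 0.0019, 0.0048 and 0.0019. Leaving out 1 library gave -0.0357 to 0.0475 for U2af2, -0.0449 to 0.034 for Snrpb, -0.0037 to 0.0769 for Sppl2b, -0.0325 to 0.0053 for Prpf6, -0.0343 to 0.0372 for Prpf4, -0.0129 to 0.0686 for Snrnp40, -0.0382 to 0.0645 for Prpf38b, -0.0981 to 0.0215 for Snrpa, -0.12 to 0.0315 for Snrpd2, -0.0017 to 0.0393 for Lsm14a and -0.0216 to 0.0223 for Prpf18.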
